A study of Mus musculus with 10 samples.

Results

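The 9 genes described here encode the machinery of antigen presentation by major histocompatibility complex (MHC) class II molecules: the antigen-binding chains H2-Aa, H2-Ab1 and H2-Eb1, the invariant chain Cd74, the peptide editor H2-DMa and H2-DMb1, its modulator H2-Oa and H2-Ob, and the transactivator Ciita. They were chosen by gene symbol, and all 9 were found among the 24454 genes of the count table. RNA was sequenced from full-thickness back skin of 5 WT mice and 5 Zfp36ΔARE knockin mice of strain C57BL/6, with 1 library per mouse and littermates as controls. Zfp36ΔARE mice lack an instability motif in the 3′-UTR of the Zfp36 mRNA at the endogenous locus, in every cell of the body, and Zfp36 encodes tristetraprolin (TTP), a protein that binds AU-rich elements and promotes the decay of the mRNAs that hold them. Both groups were treated alike. From 7 weeks of age the shaved skin received 400 nmol of the mutagen DMBA once, in 0.2 ml acetone, and from 1 week later 10 nmol of the phorbol ester TPA 2 times per week for 20 weeks. The biopsies came from treated skin without tumor, and skin that had not been treated was not part of these samples.

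Class II molecules carry peptides of proteins that a cell has taken up and digested, and show them to CD4+ T cells. In the skin they are best known from Langerhans cells of the epidermis and from dendritic cells and macrophages of the dermis, and keratinocytes can make them under interferon-γ. An α and a β chain assemble in the endoplasmic reticulum with the invariant chain, which fills the groove and steers the complex to endosomes, where proteases cut it down, DM exchanges the remnant for a peptide, and DO restrains DM. Transcription of most of these genes depends on CIITA, a protein that does not bind DNA itself and docks on the RFX, CREB and NF-Y factors assembled on the X and Y boxes of class II promoters.

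In the mouse genome (GRCm38), 7 of the 9 genes lie on chromosome 17 within 224335 bases, from 34092340 to 34316674, and Ciita lies on chromosome 16 from 10480059 to 10528418. Promoter windows of 300 bases, 250 before and 50 after the annotated start, were taken from RefSeq (GRCm38.p6) for 6 members. They are shown for the sites on which the CIITA assembly docks. Each window was searched on both strands for GNAAC, the core of the X box, followed after 18 to 32 bases by GATTGG, which holds the reverse complement of the CCAAT box that NF-Y binds. These letters were chosen after the windows of these genes had been read, so their presence is a description. The pair was found on the gene strand in 5 of the 6 members, and capitals mark its GNAAC and GATTGG parts in the sequences that follow.
H2-Aa: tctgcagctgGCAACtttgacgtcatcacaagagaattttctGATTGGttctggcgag
H2-Eb1: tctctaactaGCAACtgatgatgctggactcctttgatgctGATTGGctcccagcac
H2-DMb1: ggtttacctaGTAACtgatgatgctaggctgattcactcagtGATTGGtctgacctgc
H2-Oa: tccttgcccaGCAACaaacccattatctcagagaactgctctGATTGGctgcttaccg
H2-Ob: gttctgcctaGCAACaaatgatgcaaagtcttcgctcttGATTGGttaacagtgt
The stretch of H2-Aa lies on the minus strand at chr17:34287857-34287914. Those on the plus strand are at chr17:34305766-34305822 (H2-Eb1), chr17:34153087-34153144 (H2-DMb1), chr17:34092293-34092350 (H2-Oa) and chr17:34238808-34238862 (H2-Ob). Measured from the annotated start, GNAAC began at -81 in H2-Aa, -91 in H2-Eb1, -94 in H2-DMb1, -76 in H2-Oa and -87 in H2-Ob, and the gap to GATTGG was 24 bases in H2-Ob, 26 in H2-Eb1 and 27 in the other 3. The same pair occurred in 1.35% of the 11768 tested genes with such a window, whereas GATTGG alone was found in 22.5% and GNAAC alone in 85.5%. It was not found in the 2 windows of H2-DMa, chr17:34122582-34122881 and chr17:34125268-34125567. These do not cover the gene start at 34119541 given further on, and other starts of H2-DMa were not searched. H2-Ab1, Cd74 and Ciita were not searched either. A part of the pair in the differences between the genotypes was not tested.

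Total counts ranged from 19595035 to 36419573 per library. Zfp36 itself had 2152 ± 277 normalized counts in WT and 5427 ± 766 in Zfp36ΔARE skin (SD, n = 5 each), with a log2 fold change of 1.33 (edgeR adjusted p = 0.0019), so the targeted gene differed in the direction of its label. Some libraries stood apart. The summed counts of 4 Y-linked genes were between 3349 and 4262 in Zfp36ΔARE replicates 2 to 5 and at most 1 in Zfp36ΔARE replicate 1 and in all WT libraries, and sex and genotype can therefore not be told apart except through that 1 mouse. The hair shaft score, the mean log2(CPM + 1) of 10 hair keratin and hair matrix genes, was 2.45 in WT replicate 3, 5.10 in WT replicate 1, between 7.54 and 7.96 in the other 3 WT libraries and between 8.67 and 10.0 in the Zfp36ΔARE libraries. Here a normalized count is a count scaled by edgeR's TMM factors to the mean effective library size, and a gene was called when its edgeR quasi-likelihood test passed a Benjamini-Hochberg adjusted p of 0.05 over the 15543 genes tested.

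Class II genes were lower in Zfp36ΔARE skin. Of the 9 members, all of which passed the filter on low counts, 7 were called lower and 0 higher: the 3 classical chain genes, Cd74, both DM genes and Ciita. H2-Oa and H2-Ob did not pass. Over all genes tested, 19.1% were called lower and 15.3% higher, and the median log2 fold change was 0.0076, against -0.86 over the members. At an unadjusted p of 0.05, 0 members were higher, and DESeq2 and limma-voom called the same numbers, 7 lower and 0 higher. With the hair shaft score as a covariate, with the Y-linked counts as a term, or in the libraries without Y-linked counts alone, edgeR called 0 members, as described further on. With the additional condition of a fold change over 2, 2 members were called lower (Cd74 and Ciita) and 0 higher, where 6.64% of all genes were lower and 1.67% higher. That number was 0 without WT replicate 3 or Zfp36ΔARE replicate 3, 1 without WT replicate 1 or Zfp36ΔARE replicate 2, and 4 without WT replicate 4. In 7 of the 9 members each Zfp36ΔARE library lay below each WT library, a pattern seen in 11.9% of all genes, while 11.2% showed the opposite one. All 9 fitted differences were below 0, as were 49.1% of those of all genes. In whole skin, fewer cells that express a gene and less RNA of it per cell cannot be told apart.

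**Figure D1:**
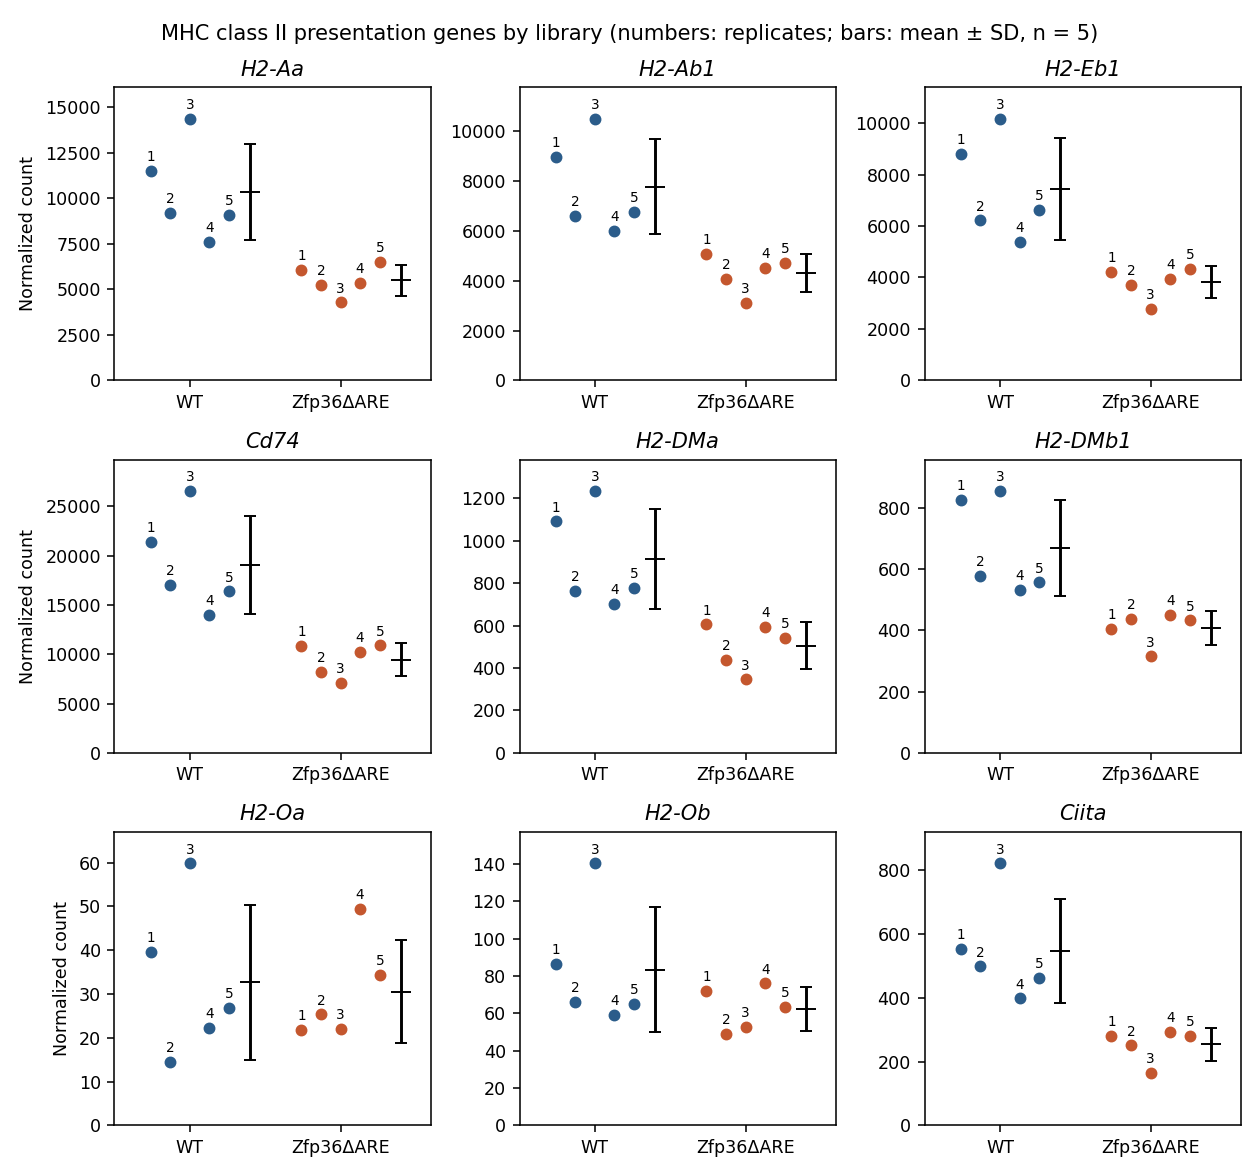
Normalized counts (vertical axis, from 0) of the 9 class II genes in each of the 5 WT (blue) and 5 Zfp36ΔARE (orange) libraries, with replicate numbers beside the points and the mean ± SD as bars. The groups do not overlap in 7 genes and overlap in H2-Oa and H2-Ob, and WT replicate 3 is the highest of all 10 libraries in all 9.

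The genes for the classical class II chains, which form the peptide groove seen by T cells, were reduced to between 51.2% and 55.3% of their WT means. H2-Aa, the α chain of the I-A molecule (chromosome 17, 34282744 to 34287823, minus strand, 5 exons), had 11511, 9203, 14358, 7601 and 9088 normalized counts in WT replicates 1 to 5. It had 6072, 5227, 4284, 5373 and 6521 in the Zfp36ΔARE replicates. The lowest WT library thus lay above the highest Zfp36ΔARE library. The log2 fold change was -0.91 (standard error 0.17, edgeR adjusted p = 0.0072), and the means were 10352 ± 2640 and 5495 ± 857 (SD, n = 5 each).

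H2-Ab1, the β chain that pairs with H2-Aa (34257689 to 34269419, plus strand, 6 exons), had 8975, 6588, 10499, 6008 and 6764 normalized counts in WT and 5077, 4077, 3102, 4509 and 4725 in Zfp36ΔARE skin. The groups did not overlap, and Zfp36ΔARE replicate 1, the mouse without Y-linked counts, was the highest of its group. The log2 fold change was -0.85 (standard error 0.18, edgeR adjusted p = 0.0088). H2-Eb1, the β chain of the I-E molecule (34305867 to 34316674, plus strand, 6 exons), had 8792, 6223, 10168, 5388 and 6620 normalized counts in WT and 4227, 3723, 2788, 3960 and 4348 in Zfp36ΔARE skin. Again every Zfp36ΔARE library was below every WT library, at a log2 fold change of -0.97 (standard error 0.18, edgeR adjusted p = 0.0072). Its partner α chain is a pseudogene in this strain. The table lists that pseudogene, H2-Ea-ps, with 0 counts in all 10 libraries, which allows up to 3 counts in each.

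Cd74, the invariant chain that escorts new class II molecules to endosomes (chromosome 18, 60803848 to 60812652, plus strand, 8 exons), was the most abundant member. It had 21383, 17021, 26557, 13967 and 16384 normalized counts in the WT replicates. In the Zfp36ΔARE replicates it had 10830, 8190, 7138, 10269 and 10903. The groups did not overlap, and the difference was 2.01-fold (log2 fold change -1.01, standard error 0.19, edgeR adjusted p = 0.0068), with means of 19062 ± 4971 and 9466 ± 1704 (SD, n = 5 each). An annotated microRNA gene, Mir5107, overlaps an exon of Cd74 on the same strand.

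The DM genes, whose product loads peptides onto class II molecules in endosomes, were also lower. H2-DMa (chromosome 17, 34119541 to 34139101, 6 exons) had 1091, 764, 1234, 702 and 779 normalized counts in WT and 606, 437, 346, 593 and 542 in Zfp36ΔARE skin. H2-DMb1 (34153072 to 34160230, 6 exons) had 826, 578, 854, 532 and 556 in WT and 405, 438, 315, 450 and 433 in Zfp36ΔARE skin. Neither gene overlapped between the groups, and their log2 fold changes were -0.86 (standard error 0.20, edgeR adjusted p = 0.012) and -0.71 (standard error 0.16, edgeR adjusted p = 0.011). Of the 50-base windows in the reference transcripts of H2-DMb1, 27.2% also occur in its neighbour H2-DMb2, so fragments could be split between these copies, whereas the other 8 members share 0. H2-DMa overlaps exons of Brd2 on the other strand, and the sources used here do not give the strand setting of the counting.

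The DO genes, whose product dampens DM and is best known from B cells and some dendritic cells, were weakly expressed and did not pass the test. H2-Oa (34092340 to 34095234, 5 exons, overlapping an exon of BC051537 on the other strand) had 39.6, 14.5, 59.8, 22.3 and 26.8 normalized counts in WT and 21.7, 25.3, 22.0, 49.4 and 34.3 in Zfp36ΔARE skin. H2-Ob (34238903 to 34254414, 6 exons) had 86.6, 66.2, 140, 59.2 and 65.0 in WT and 71.9, 48.9, 52.7, 76.1 and 63.3 in Zfp36ΔARE skin. Both pairs of groups overlapped, and the highest library of each was WT replicate 3. The log2 fold change was -0.10 for H2-Oa (95% interval -0.95 to 0.76, edgeR adjusted p = 0.86) and -0.41 for H2-Ob (-0.97 to 0.15, adjusted p = 0.22). With between 18 and 115 counts in any library, against 149 to 23218 for the other 7 members, these were the members with the fewest counts. A log2 difference of -0.86, as in H2-DMa, lay within both intervals, so that neither a difference of that size nor its absence was shown. The fitted log2 difference of H2-Oa was 0.22 without WT replicate 3 and 0.0075 without Zfp36ΔARE replicate 1.

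Ciita, the gene of the transactivator, had the largest fitted difference of the members. This gene of 19 exons had 554, 498, 821, 398 and 462 normalized counts in the WT replicates and 280, 251, 164, 292 and 281 in the Zfp36ΔARE replicates. The groups did not overlap, and the level was 2.15-fold lower (log2 fold change -1.11, standard error 0.21, edgeR adjusted p = 0.0074), from 547 ± 164 to 254 ± 52.6 (SD, n = 5 each). Ordered by fold change from the most lowered gene, Ciita stood at place 858 of the 15543 genes tested and Cd74 at place 1088. An exon of Dexi lies over Ciita on the other strand.

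On a scale per transcript length (FPKM, computed here from the gene lengths in the table), the order of the members was the same in both groups except among near neighbours. In WT skin the level was 505 ± 132 FPKM for Cd74, 363 ± 92.5 for H2-Aa, 244 ± 59.6 for H2-Ab1 and 167 ± 44.4 for H2-Eb1 (SD, n = 5). The ranges of neighbours among these 4 overlapped between libraries, but within each of the 10 libraries the order held. A wide step followed, to 20.7 ± 5.29 FPKM for H2-DMa and 19.5 ± 4.58 for H2-DMb1, whose ranges overlapped, although H2-DMa was above H2-DMb1 in each of the 5 WT libraries and in 2 of the 5 Zfp36ΔARE libraries. Ciita stood at 3.42 ± 1.02 FPKM, and H2-Ob and H2-Oa, which did not differ beyond their spread, were lowest at 1.17 ± 0.469 and 1.16 ± 0.632. In Zfp36ΔARE skin the means ran from 251 FPKM for Cd74 to 0.878 for H2-Ob. The 9 genes took between 0.131% and 0.245% of all counts in WT libraries and between 0.064% and 0.108% in Zfp36ΔARE libraries, without overlap. Cd74 alone made up 40.1% to 41.6% of the member counts in WT and 36.5% to 40.2% in Zfp36ΔARE libraries.

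The 2 WT libraries with the lowest hair shaft scores, replicates 3 and 1, had the highest and second highest WT value of every member, and Zfp36ΔARE replicate 3, with the highest hair score, was the lowest of all libraries in 7 members. Without WT replicates 1 and 3, 6 members were called lower, with log2 fold changes of -0.65 for H2-Aa, -0.59 for H2-Ab1, -0.67 for H2-Eb1, -0.74 for Cd74, -0.45 for H2-DMb1 and -0.84 for Ciita, while H2-DMa was at -0.57 (edgeR adjusted p = 0.051) and H2-Oa at 0.51 (adjusted p = 0.33). Without those 2 libraries, 1447 of the 15543 genes tested were called lower and 1088 higher. Leaving out any single library kept 7 calls. With the hair shaft score as a covariate, 0 members passed the adjusted p, 5 were lower at an unadjusted p of 0.05 (H2-Aa, H2-Ab1, H2-Eb1, Cd74 and Ciita) and H2-Oa was higher, and the log2 fold changes of the 7 lay between -0.55 and -0.27 with adjusted p between 0.16 and 0.40. Of all genes, 13 were called in that fit, 11 lower and 2 higher. At an unadjusted p of 0.05 it was 2169 of the 15543 genes tested, both directions together. The hair shaft score did not overlap between the genotypes, so this fit cannot tell hair content and genotype apart. The mouse that could separate sex from genotype, Zfp36ΔARE replicate 1, lay below every WT library in 7 of the 9 members. This follows from the lack of overlap between the groups in those 7 genes and is not a separate result. A fit with the presence of Y-linked counts (over 100) as a term gave log2 fold changes from -0.96 to -0.59 for the 7 genes. Its edgeR adjusted p lay between 0.21 and 0.33. Its genotype difference rests on Zfp36ΔARE replicate 1 against the 5 WT libraries, so it is not separate from the comparison given after it. In this fit 0 genes of the whole table were called. An unadjusted p below 0.05 was found for 5 members and for 3382 of the 15543 genes tested. The 5 WT libraries against Zfp36ΔARE replicate 1 alone gave -0.96 to -0.59, where the lone mouse was assumed to vary like WT. With 1 mouse in a group, its own spread cannot be measured.

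**Figure D2:**
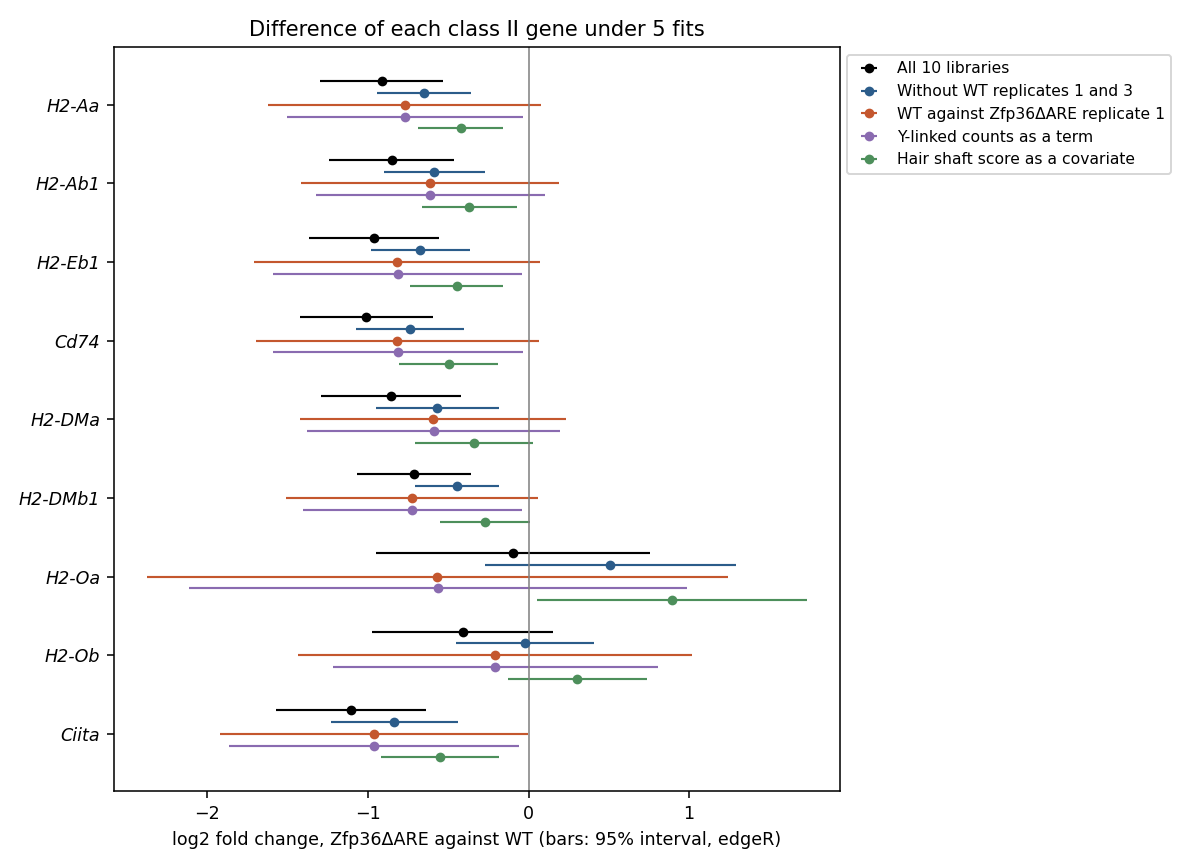
Fitted log2 fold change of each class II gene, Zfp36ΔARE against WT (horizontal axis, bars are 95% intervals from edgeR), from all 10 libraries and from 4 other fits. The fit with Y-linked counts as a term and that of WT against Zfp36ΔARE replicate 1 rest on the same mouse. The fitted values of the 7 called genes stay left of 0 in each fit, from -1.11 to -0.27, while H2-Oa and H2-Ob lie on either side of 0. The intervals of H2-Ab1 and H2-DMa reach past 0 with the Y-linked term, and those of H2-DMa and H2-DMb1 with the hair shaft score. Those of most of the 7 do so in WT against Zfp36ΔARE replicate 1.

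Ratios of 2 genes within a library, computed from normalized counts with a pseudocount of 1, showed that the members did not fall by quite the same factor. Cd74 fell further than H2-Ab1: the log2 ratio of Cd74 to H2-Ab1 was 1.25, 1.37, 1.34, 1.22 and 1.28 in WT and 1.09, 1.01, 1.20, 1.19 and 1.21 in Zfp36ΔARE libraries, without overlap. The difference was -0.15 (exact permutation p = 0.0079, two-sided, which 5 against 5 libraries cannot go below, and adjusted p = 0.038 over the 12 ratios). Ciita also fell further than H2-Ab1, by a log2 ratio difference of -0.25 (exact permutation p = 0.016, adjusted p = 0.038), with log2 ratios from -4.01 to -3.68 in WT and from -4.24 to -3.94 in Zfp36ΔARE libraries. H2-Oa was higher relative to H2-DMa, by 0.84 (exact permutation p = 0.016, adjusted p = 0.038), but the adjusted p was 0.057 at a pseudocount of 0.1 in place of 1 and also from raw counts, and 4 of the 12 ratios then passed. The remaining ratios among members did not pass. H2-Aa to H2-Ab1, the 2 chains of I-A, differed by -0.05 (adjusted p = 0.47), H2-Eb1 to H2-Ab1 by -0.10 (adjusted p = 0.063), H2-DMa to H2-Ab1 by -0.01 (adjusted p = 0.87), H2-DMb1 to H2-Ab1 by 0.15 (adjusted p = 0.18) and H2-Ob to H2-DMb1 by 0.34 (adjusted p = 0.15), all by exact permutation. With 1 library left out the smallest p is 0.0159, which the adjustment passes only when at least 4 ratios reach it, and between 0 and 4 of the 12 ratios passed, against 5 with all libraries. The 4 passed without Zfp36ΔARE replicate 4.

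**Figure D3:**
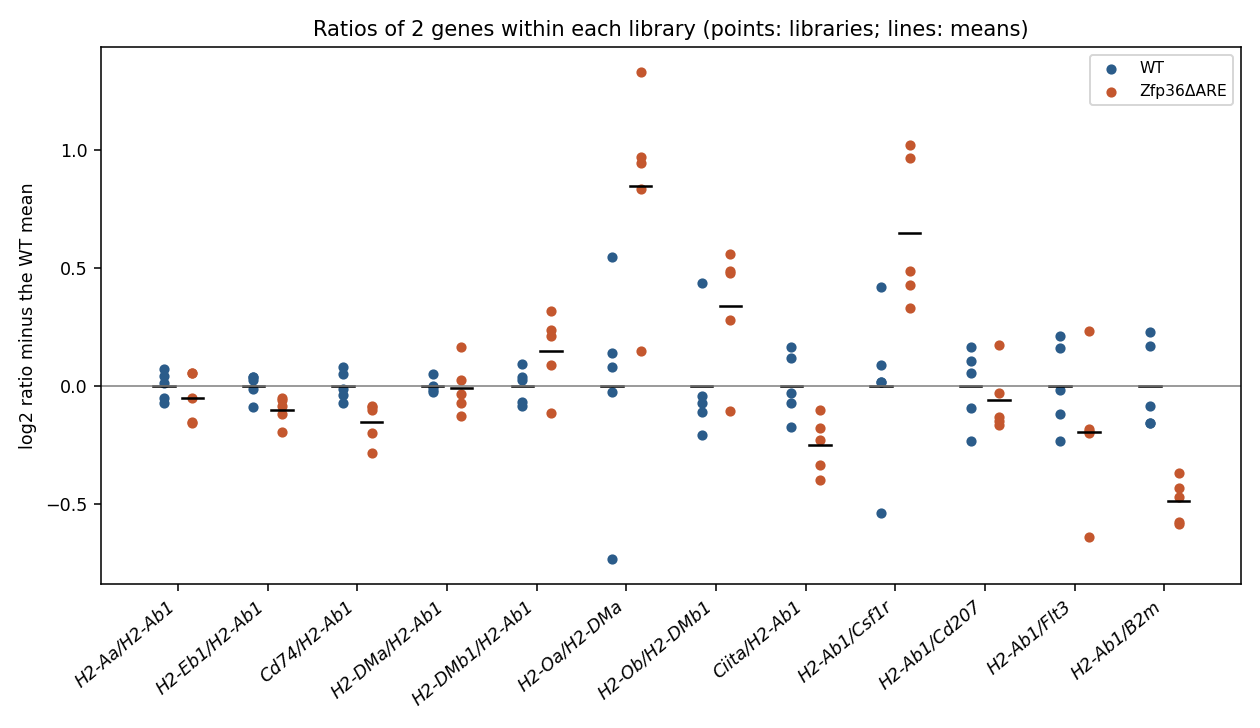
Log2 ratio of 2 normalized counts (pseudocount 1) in each library minus the WT mean of that ratio (vertical axis), for the 12 ratios tested, with WT in blue, Zfp36ΔARE in orange and lines at the group means. The groups do not overlap for Cd74 to H2-Ab1 and for H2-Ab1 to B2m.

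The other genes of the same stretch of chromosome 17 were not called. Between H2-Oa and H2-Eb1 lie 6 further genes of the table, and 0 of them were called lower or higher by edgeR, with a median log2 fold change of -0.05. The shares over all genes were 19.1% lower and 15.3% higher, and 6 genes are few to set beside them. Brd2, a chromatin reader, had 5847 ± 154 normalized counts in WT and 6405 ± 185 in Zfp36ΔARE skin (SD, n = 5 each; log2 fold change 0.13, edgeR adjusted p = 0.066). Each Zfp36ΔARE library lay above each WT library in Brd2, a pattern seen in 11.2% of all genes. Brd2 was the single neighbour with an unadjusted p below 0.05, and DESeq2 called it higher (adjusted p = 0.00081), while limma-voom called 0 neighbours. Tap1, a subunit of the pump that brings peptides to MHC class I, had 3003 ± 253 and 2996 ± 567 normalized counts (log2 fold change -0.003, standard error 0.12), and Tap2, Psmb8 and Psmb9 of the same route were at -0.06, -0.19 and -0.05. H2-DMb2, the other DM β chain gene, was at -0.45 (standard error 0.26, edgeR adjusted p = 0.20).

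**Figure D4:**
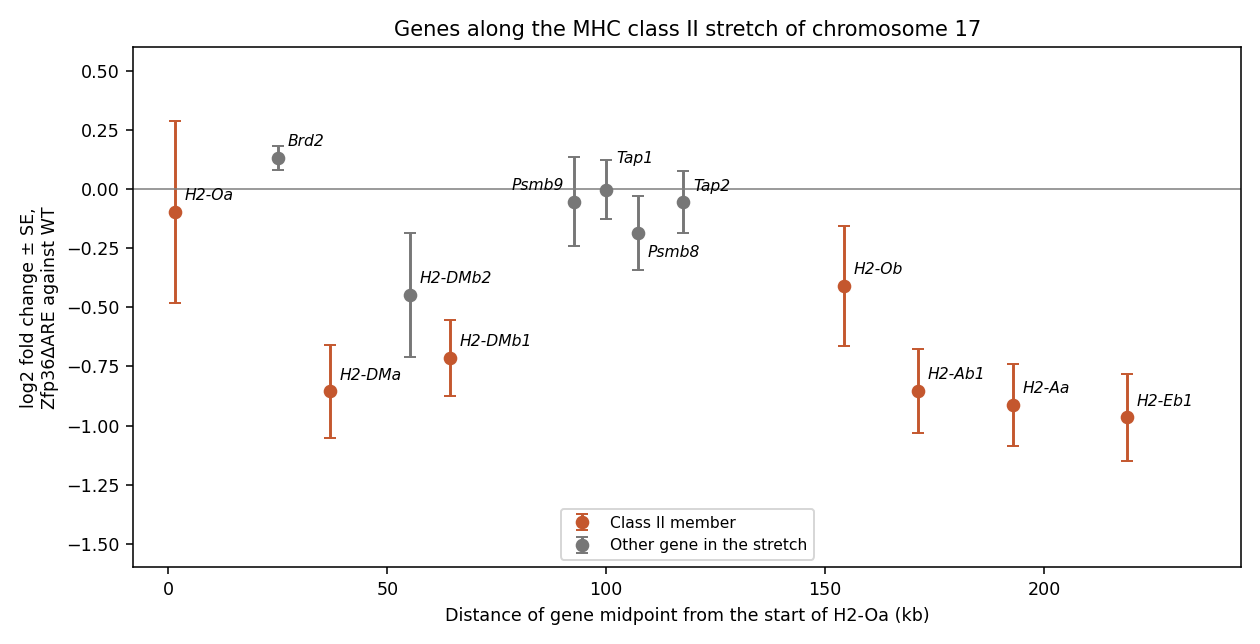
Log2 fold change ± standard error (vertical axis) of the genes along the class II stretch of chromosome 17, by distance of the gene midpoint from the start of H2-Oa in kb (horizontal axis). Class II members are orange and the 6 other genes grey. The members other than H2-Oa and H2-Ob lie between -0.97 and -0.71, and the 6 others between -0.45 and 0.13.

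Around the members, 7 lists of genes of the class II route were described. They hold 53 genes of the table, of which 51 were tested, 9 were called lower (17.6%, against 19.1% of all genes) and 0 higher. At an unadjusted p of 0.05 it was 13 lower and 1 higher, DESeq2 called 12 lower and 1 higher, and limma-voom 11 lower and 0 higher. The share called lower was thus near that of all genes.

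The factors on which CIITA docks were not among the genes called. Of the 7 genes for RFX, NF-Y and CREB, 0 were called by edgeR, and their median log2 fold change was 0.13. Nfya, a subunit of NF-Y, had 1537 ± 79.9 and 1683 ± 114 normalized counts (SD, n = 5 each), and Creb1 had 1437 ± 96.4 and 1551 ± 136. Rfx5, the large RFX subunit, had 801 ± 49.7 and 894 ± 47.0. Its edgeR adjusted p was 0.069, and DESeq2 called it higher (log2 fold change 0.16, adjusted p = 0.039).

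Of the route from interferon-γ to Ciita, 2 of 8 tested genes were called lower and 0 higher. Jak1, the kinase bound to the receptor, fell from 6619 ± 737 to 4439 ± 565 normalized counts (log2 fold change -0.58, edgeR adjusted p = 0.0066), and Ifngr1, the ligand-binding receptor chain, from 2710 ± 430 to 1903 ± 233 (-0.51, adjusted p = 0.012). Ifng did not pass the filter on low counts and had 6.54 ± 0.92 and 11.5 ± 3.5 normalized counts (SD, n = 5 each).

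Of 10 genes for endosomal processing, 3 were called lower and 0 higher, with a median of -0.02. Ctss, cathepsin S, which makes the last cuts in the invariant chain, fell from 3631 ± 946 to 1489 ± 553 normalized counts (log2 fold change -1.29, edgeR adjusted p = 0.0090). Lgmn, an asparagine endopeptidase, and Cst3, a cathepsin inhibitor, were at -0.65 (adjusted p = 0.014) and -0.36 (adjusted p = 0.023). The more abundant Ctsb and Ctsd were at 0.22 (adjusted p = 0.30) and -0.03 (adjusted p = 0.85).

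Of 4 genes for surface turnover, March1 was called lower. It encodes a ubiquitin ligase that removes class II molecules from the surface of dendritic and B cells, and it fell from 237 ± 82.2 to 92.2 ± 27.1 normalized counts (SD, n = 5 each; log2 fold change -1.37, edgeR adjusted p = 0.0081). Its relative March8 was at 0.10 (adjusted p = 0.21) and Cd83, which opposes MARCH1, at -0.32 (adjusted p = 0.42). Of 6 costimulatory genes, 2 were called lower, Cd80 (-0.79, adjusted p = 0.021) and Cd40 (-0.77, adjusted p = 0.015). Cd86, Cd274, Icosl and Pdcd1lg2 did not pass, and the median was -0.54. The 2 other class II genes tested, H2-DMb2 and H2-Eb2, were not called by edgeR, DESeq2 or limma-voom and had 0 members with an unadjusted p below 0.05.

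MHC class I molecules present peptides from inside the cell. Of 14 genes of that route, 1 was called lower, B2m, the light chain of class I molecules (log2 fold change -0.35, edgeR adjusted p = 0.0497), and the median was -0.15. B2m was at the threshold and was not called under most alternatives, among them each of 8 fits that leave out 1 library. H2-K1 had 26338 ± 2437 normalized counts in WT and 23675 ± 3247 in Zfp36ΔARE skin (SD, n = 5 each; -0.15, adjusted p = 0.30). The ratio of H2-Ab1 to B2m within a library was lower in Zfp36ΔARE skin, with a log2 difference of -0.49 and without overlap between the groups (exact permutation p = 0.0079, adjusted p = 0.038).

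Many markers of macrophages and dendritic cells, which carry class II molecules, were also lower, and their part in the result was not tested. For comparison, 19.1% of all genes tested were called lower. Of 10 macrophage markers, 9 were called lower, with a median log2 fold change of -1.33, and their summed level was 16822 to 34582 normalized counts in WT and 8721 to 13162 in Zfp36ΔARE libraries. Mrc1, the mannose receptor, and Csf1r, the receptor for the macrophage growth factor, were the most abundant and were at -1.40 and -1.50 (edgeR adjusted p = 0.0047 and 0.0045), and C1qa, a complement chain, had the largest difference, -1.55 (adjusted p = 0.0040). H2-Ab1 fell less than Csf1r within a library, by 0.65 on the log2 scale (exact permutation p = 0.016, adjusted p = 0.038).

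Of 11 dendritic cell markers, 7 were called lower and 0 higher, with a median of -0.64, and the summed levels were 5152 to 9089 in WT and 3860 to 5159 in Zfp36ΔARE libraries. Itgax, the integrin CD11c, and Clec10a, a lectin, were at -1.46 and -1.28 (edgeR adjusted p = 0.019 and 0.0053), while the most abundant, Dpp4 and Mgl2, were at 0.27 (adjusted p = 0.14) and -1.27 (adjusted p = 0.0072). Of 4 Langerhans cell markers, 2 were called lower, Cd207, the lectin langerin (-0.79, adjusted p = 0.0096), and Ltc4s (-1.09, adjusted p = 0.0053), and the other 2, Epcam and Cd24a, are also made by keratinocytes and were at 0.05 and -0.04. Their summed levels overlapped, at 9448 to 12454 and 8838 to 12593. The log2 ratio of H2-Ab1 to Cd207 differed by -0.06 (4.19 ± 0.16 in WT and 4.13 ± 0.14 in Zfp36ΔARE libraries, SD, n = 5 each; exact permutation p = 0.53, adjusted p = 0.58) and that to Flt3, a dendritic cell receptor, by -0.20 (adjusted p = 0.34). These ratios were not shown to differ, which does not show that they are equal.

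Lymphocyte markers were not called. Of 8 tested T cell markers, 0 were called by edgeR, DESeq2 or limma-voom and 0 had an unadjusted p below 0.05. Their median was 0.01, and their summed levels were 751 to 1315 in WT and 798 to 1119 in Zfp36ΔARE libraries. Lck, a T cell kinase, had 195 ± 37.7 and 225 ± 23.9 normalized counts, and Cd4, the co-receptor that binds class II, had 171 ± 56.4 and 170 ± 34.1 (SD, n = 5 each; log2 fold change -0.01, adjusted p = 0.98). Of 7 B cell markers, 4 were tested, 0 were called by the same 3 tools and 0 had an unadjusted p below 0.05, with a median of -0.24. Blk and Cd22, the most abundant of those tested, had 47.4 ± 24.5 and 34.4 ± 15.6 normalized counts in WT (SD, n = 5), and the summed levels of 95.1 to 171 and 63.7 to 192 were low in both groups.

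Markers of hair shaft, skeletal muscle and fat differed as well. Their part in the result was not tested, since the hair covariate fit cannot separate hair content from genotype. Among all genes tested, 19.1% were called lower and 15.3% higher. Of 10 hair shaft genes, 2 were called higher by edgeR and 10 by DESeq2, with a median of 2.29 and no overlap of the summed levels (1458 to 90903 in WT, 138153 to 432966 in Zfp36ΔARE libraries). Of 10 skeletal muscle genes, 9 were called lower (median -1.48), and of 8 adipocyte genes 6 (median -1.19). Of 7 basal keratinocyte genes, 2 were called lower, Itgb4 (-0.35) and Itga6 (-0.29), and 5 were not called. The most abundant, Krt5 and Krt14, were at -0.07 and -0.14, and the list median was -0.17.

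**Figure D5:**
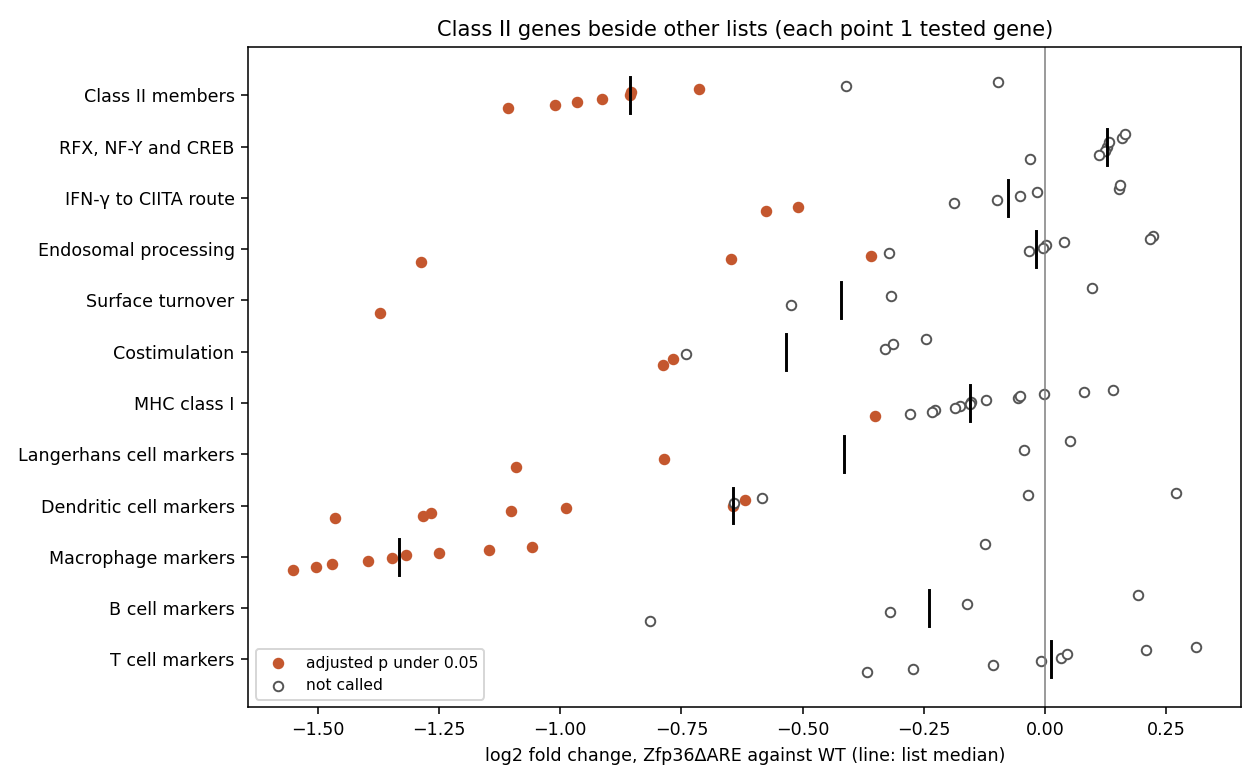
Log2 fold change (horizontal axis) of each tested gene in the class II members and 11 other lists, with genes called by edgeR filled, other genes open and a line at each list's median. The class II members have a median of -0.86, between the dendritic cell (-0.64) and macrophage (-1.33) markers, while the RFX, NF-Y and CREB genes and the T cell markers have medians of 0.13 and 0.01.

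Between mice of the same genotype, the class II genes varied together. After subtraction of the mean of the own genotype from log2(CPM + 1), the 6 pairs among H2-Aa, H2-Ab1, H2-Eb1 and Cd74 correlated at r = 0.961 to 0.985 over the 10 libraries, and all 36 pairs of members at 0.687 to 0.985. H2-Oa had the lowest values, 0.687 to 0.82. These correlations are given as a description: the 10 points share the depth, scaling and tissue composition of their libraries. Of 13683 other genes with a mean of at least 50 normalized counts, 0.548% correlated above 0.9 with the mean of those 4 genes, and the median r was -0.03. Among the genes most like it were Myo1g (r = 0.975), Eno2 (0.968), Mfsd12 (0.963), Dennd3 (0.963), Pde8a (0.959), Dock10 (0.958) and Il2rg (0.953). Of these, Myo1g, Mfsd12, Dennd3, Pde8a, Dock10 and Il2rg were called lower in Zfp36ΔARE skin, with log2 fold changes from -1.01 to -0.69, while Eno2 was at -0.21 (edgeR adjusted p = 0.43). The cell markers covered a wide range of r. It ran from 0.353 (Cd247) to 0.879 (Lat) over 8 T cell markers, with a median of 0.764, and from -0.279 (Dpp4) to 0.837 (Itgax) over the 8 dendritic cell markers with enough counts, with a median of 0.714. Over the 10 macrophage markers it ran from 0.267 (Mertk) to 0.7 (Adgre1), with a median of 0.52, and over the 4 Langerhans cell markers from -0.227 (Epcam) to 0.87 (Cd207), with a median of 0.412.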

How the data were processed

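RNA was sequenced from DMBA/TPA-treated, nontumoral back skin of 5 WT and 5 Zfp36ΔARE mice. The authors removed reads with a low mean quality, mapped the rest to mm10 with STAR (2.5.2b), counted fragments per gene with featureCounts (Subread 1.5.0-p1) and deposited raw counts without normalization. The handling of fragments that match several genes and the use of strand are not given in the sources used here, so overlapping genes and near-identical copies are uncertain. The 2 rows without a gene name (7.38e-05% of counts) were left out. R 4.3.3 with edgeR 4.0.16 scaled these counts by TMM factors, applied filterByExpr, fitted a robust quasi-likelihood model with genotype as the only term and tested 15543 genes with Benjamini-Hochberg adjustment. The p-values set the difference between the groups against the spread between these mice, and the groups also differ in Y-linked counts. Ratios within libraries were log2((a + 1)/(b + 1)) of normalized counts, compared by exact two-sided permutation tests. Alternatives were DESeq2 1.42.0, limma 3.58.1 (voom), other scalings and filters, a replicate block, left-out libraries, Y-linked counts as a term and a hair shaft covariate. The Y-linked term was yes or no, for more than 100 counts. The script was tested on simulated data.

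The members, gene lists, tests and alternatives were chosen with earlier results of these data known. Named were all members, in each list the 2 most abundant tested genes and the 2 called genes of largest fold change, and the 8 genes most like the class II profile, except for items that are not reported here. Ifng, Rfx5, Cst3, Cd86, Pdcd1lg2, Tap2, Psmb8, Psmb9, Lat, Cd247, Mertk, Adgre1 and Flt3 were named beside this rule, after their values were seen. Promoter windows came from RefSeq (GRCm38.p6), and gene positions and transcripts from GENCODE (GRCm38).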

Additional observations from a re-analysis of the deposited data

Results flagged for a closer look

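Of 42 groups of 5 libraries examined (the normalized counts of the 9 members and the 12 within-library ratios, in each genotype), 1 had a library far from the other 4, where chance gives about 2.1. It was the log2 ratio of H2-Ob to H2-DMb1 in WT skin, which was -2.60 in WT replicate 3 and between -3.24 and -3.08 in the other WT libraries, so that its distance to the nearest was 0.748 of the whole range. The same ratio lay between -3.14 and -2.48 in the Zfp36ΔARE libraries. WT replicate 3 was the library with the lowest hair shaft score, 2.45, and the highest normalized count of every member. Without this library the difference of the ratio between the genotypes was 0.45 on the log2 scale (exact permutation, adjusted p = 0.095), against 0.34 (adjusted p = 0.15) with all libraries.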

How the results depend on the processing

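The 7 members called lower stayed at 7 with DESeq2, limma-voom, scaling by upper quartiles or by DESeq2's size factors, both other filters and each library left out in turn. The number was 6 without WT replicates 1 and 3 together and 0 in each of the fits with Y-linked counts as a term, with only the libraries without Y-linked counts and with the hair shaft covariate. Those fits called 513, 0, 0 and 8 genes of the whole table at a fold change over 2, against 1292 with all libraries and 824 to 1499 with 1 library left out (824 without WT replicate 3). The members called lower with a fold change over 2, 2 in number, became 1 with limma-voom, 0 in the 4 fits just named, and 0 to 4 with 1 library left out (0 without WT replicate 3 or Zfp36ΔARE replicate 3, 1 without WT replicate 1 or Zfp36ΔARE replicate 2, 4 without WT replicate 4). Of the genes in the 7 pathway lists, 9 were called lower, 4 without WT replicates 1 and 3 together and 7 to 11 with 1 library left out. DESeq2 called 1 of them higher, and 0 to 1 were higher with 1 library left out.

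Of the 12 ratios, 5 passed with all libraries, 0 without WT replicates 1 and 3 together (3 against 5, smallest p 0.0357) and 0 to 4 with 1 library left out. The sign of the H2-Oa difference turned without WT replicates 1 and 3 (0.51) and with the hair covariate (0.89), and its range with 1 library left out was -0.33 to 0.22. H2-Ob turned with the hair covariate (0.30). The ratio of H2-DMa to H2-Ab1 was 0.0084 without WT replicates 1 and 3 and -0.052 to 0.021 with 1 library left out. The cause of these changes was not tested. B2m, the only class I gene called, was not called with DESeq2's size factors, without a filter, in the block fit, without WT replicates 1 and 3, in the fits with Y-linked counts or the hair covariate, or without any 1 of WT replicates 1, 2, 3 and 5 and Zfp36ΔARE replicates 2 to 5.

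The genotypes share replicate numbers, but same-numbered libraries did not deviate together (correlations of deviations from the group means -0.192 to 0.0851), so the numbers were not taken as pairs. Of the 10 libraries, 0 were closest to the library of their own number in the other genotype. With the replicate number as a block, 6 members were called lower (H2-DMb1 at an adjusted p of 0.05), 1 of them with a fold change over 2, and 4 genes of the pathway lists. H2-Oa had 18 to 49 counts per library and H2-Ob 48 to 115, and the part of depth in their results was not tested.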

Other observations

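TTP acts on mRNAs with AU-rich elements in the 3′-UTR, whose core is ATTTA. In the reference transcripts, 4 of the 9 members hold ATTTA in the annotated 3′-UTR: H2-Ob has 4, and H2-DMa, H2-DMb1 and Ciita have 1 each. H2-Aa, H2-Ab1, H2-Eb1, Cd74 and H2-Oa have 0. That is 44.4% of the members, against 68.8% of the 14391 tested genes with a 3′-UTR and 69.0% of those whose 3′-UTR is within the members' range of 228 to 2676 bases. The median 3′-UTR had 490 bases in the members, 1128 in the tested genes and 1010 in those within the range. The shares are therefore not matched for length, and a shorter 3′-UTR has less room for ATTTA. These are counts of letters in reference transcripts and say nothing of binding. Their part in the differences between the genotypes was not tested.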
